A study of Sus scrofa with 27 samples.

Results

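Of the 51 gene names chosen for the cell cycle and proliferation, 44 were gene names of the deposited table and are described here, out of 31908 genes in all. They were taken by their name alone, and a gene would have been dropped with under 10 counts in every library, which removed none. The 44 comprised 15 genes of S phase, when DNA is copied, and 29 of mitosis, when the chromosomes are divided. Of the other 7 names, 6 were found in the table only by another identifier (RRM2, CDT1, MKI67, AURKA, BUB1B and NUSAP1). They are given beside the members and counted with none of them, and CCNA2 was matched to no gene.

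The lungs came from 9 Large-White pigs, under a donor model in which the heart had stopped, and were kept in the cold before ex vivo lung perfusion (EVLP), the perfusion of an isolated lung with an acellular fluid. In the Gold Standard group (GS, pigs 9, 17, 44, 55 and 77) part of the perfusate was replaced at intervals, and in the Pediatric Dialysis group (PD, pigs 2, 3, 4 and 5) the circuit was dialysed through a membrane for children. The perfusate of both groups held methylprednisolone, a glucocorticoid, with cefuroxime and heparin. Each pig gave a biopsy before EVLP (0h), at 6h and at 12h, so the 27 libraries are 5 GS and 4 PD pigs at 3 times. Each library is 1 biopsy, and the 3 biopsies of a pig come from the same lung. The ages of the pigs are not given in the sources used here.

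Libraries held 26335584 to 67522703 counts in GS and 14650700 to 21820935 in PD, so no PD library was as deep as any GS library. Levels are given as CPM, counts scaled to library size by TMM (edgeR's cpm). A floor of 3 counts was worth up to 0.104 CPM on this scale among GS libraries and up to 0.324 among PD libraries. Relative to all libraries, the levels of GS leaned towards long transcripts and those of PD towards short ones. Across 13207 genes RefSeq transcript length was rank-correlated with the level of each library relative to all libraries. The correlation was 0.0467 to 0.397 in the GS libraries and −0.468 to −0.000392 in the PD libraries, so the signs describe the groups relative to each other. The library of PD pig 2 at 12h stood apart, with 1.65% of counts from mitochondrial genes and the fewest genes detected (18979). Surfactant and other alveolar type 2 markers, which define lung, summed to at least 5462 CPM in every library.

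Dividing cells switch on their genes in order. Late in G1, E2F factors released from the RB protein turn on cyclin E, the licensing proteins that load the MCM helicase onto origins, and the fork proteins of S phase. After S phase, MYBL2 (B-MYB) and FOXM1 join the MuvB core at CHR elements, often beside CCAAT boxes bound by NF-Y, and turn on the cyclins, kinases and motors of mitosis. In the adult lung most cells rest, and the dividing cells include alveolar type 2 cells, endothelium, macrophages and lymphocytes. In a biopsy, fewer dividing cells and less RNA of these genes per cell cannot be told apart.

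Promoters of both sets are shown because S phase and mitosis genes are known to be switched on through different elements. Each line gives 150 bases before to 20 after the RefSeq start on Sscrofa11.1, read 5′ to 3′ along the gene. Capitals mark CCAAT, the CHR core TTTGAA and the E2F-like TTTNNCGC on either strand, so that CCAAT can appear as ATTGG and TTTGAA as TTCAAA. CENPE and TPX2 are shown for their change in GS, TOP2A, CCNB2 and CDK1 for their mitotic motifs, and MCM3 and MCM7 as S phase members.
CENPE chr8:117888818-117888987 plus strand: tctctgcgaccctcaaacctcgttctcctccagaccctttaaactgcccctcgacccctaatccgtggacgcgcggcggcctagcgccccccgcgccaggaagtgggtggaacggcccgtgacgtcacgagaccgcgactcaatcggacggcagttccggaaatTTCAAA
TPX2 chr17:35431121-35431290 plus strand: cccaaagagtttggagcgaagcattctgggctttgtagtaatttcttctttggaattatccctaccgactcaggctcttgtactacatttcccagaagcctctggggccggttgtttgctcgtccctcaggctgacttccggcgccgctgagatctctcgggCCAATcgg
TOP2A chr12:22001150-22001319 plus strand: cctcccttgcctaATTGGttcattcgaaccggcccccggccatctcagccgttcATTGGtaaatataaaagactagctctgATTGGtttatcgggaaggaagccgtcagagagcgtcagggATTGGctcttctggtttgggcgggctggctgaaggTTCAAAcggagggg
CCNB2 chr1:112942199-112942368 minus strand: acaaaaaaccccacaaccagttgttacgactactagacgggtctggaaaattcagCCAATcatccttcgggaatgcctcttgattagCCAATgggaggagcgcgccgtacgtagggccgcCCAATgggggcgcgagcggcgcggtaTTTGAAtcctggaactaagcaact
CDK1 chr14:64233795-64233964 plus strand: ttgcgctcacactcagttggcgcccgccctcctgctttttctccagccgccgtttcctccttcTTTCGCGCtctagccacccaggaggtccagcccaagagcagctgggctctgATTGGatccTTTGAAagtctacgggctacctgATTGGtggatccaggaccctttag
MCM3 chr7:46104406-46104575 minus strand: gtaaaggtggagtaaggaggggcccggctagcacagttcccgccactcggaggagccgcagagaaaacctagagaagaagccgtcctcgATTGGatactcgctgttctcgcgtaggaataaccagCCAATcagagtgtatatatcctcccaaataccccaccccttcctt
MCM7 chr3:8014028-8014197 minus strand: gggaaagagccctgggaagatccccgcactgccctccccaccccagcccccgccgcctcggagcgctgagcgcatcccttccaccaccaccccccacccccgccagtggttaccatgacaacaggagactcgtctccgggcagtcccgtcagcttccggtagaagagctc

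The TOP2A stretch carried 4 CCAAT boxes and a CHR core, and that of CCNB2 3 boxes and a core. Of the S phase genes, the MCM3 stretch carried 2 boxes and no core, and the MCM7 stretch none of the letters searched. CDK1 had all 3 kinds of match. Over the longer window from 250 bases before to 50 after the start, CCAAT stood in 22 of 29 mitosis promoters (75.86%) and in 7 of 15 S phase promoters (46.67%). Among all 20638 promoters of the same length, 35.67% held it. The CHR core stood in 12 mitosis promoters (41.38%) and 2 S phase promoters (13.33%), against 14.55% of all. At least 2 CCAAT boxes occurred in 12 mitosis promoters and 2 S phase promoters, against 10.85% of all. The E2F-like letters were in 4 S phase promoters (26.67%) and 3 mitosis promoters (10.34%), against 7.05% of all. These are matches of letters and not measured binding, and the windows rest on the RefSeq start. For the 43 members with both starts, the Ensembl start lay within 250 bases for 23 and over 1000 bases away for 12 (42692 bases for PCNA and 76699 for PLK4). Among those 23, CCAAT stood in 16 of 18 mitosis and 1 of 5 S phase promoters and the CHR core in 9 and 0, a comparison added after seeing the data.

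**Figure D1:**
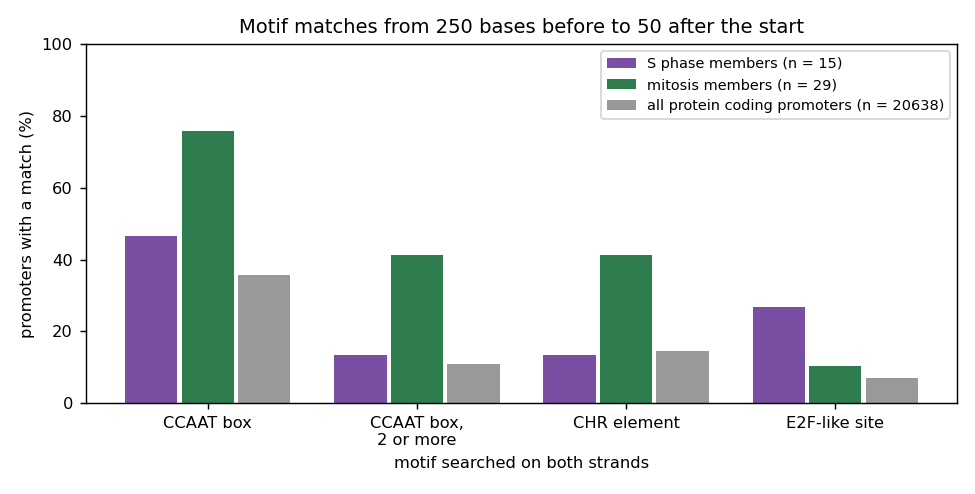
Share of promoters (%, from 0) with at least 1 match of each motif, both strands searched, for 15 S phase members, 29 mitosis members and all 20638 protein coding promoters. CCAAT reached 75.86% of mitosis promoters and 46.67% of S phase promoters, against 35.67% of all.

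The first question was how perfusion itself changed these genes, each pig being compared with its own 0h biopsy. In GS, 26 of the 29 mitosis members had a lower estimate at 6h than at 0h, and again 26 at 12h. The median of the S phase members lay near that of all genes, but single pigs did not. The median log2 fold change of the mitosis members was −0.45 at 6h and −0.46 at 12h. The S phase members had medians of −0.12 and −0.03, and all 18594 genes tested had −0.05 and −0.08. Within pigs 9, 17, 44, 55 and 77 the S phase median at 6h was −0.62, −0.49, −0.26, 0.39 and 0.37, so pigs differed in direction. In pigs 9 and 17 the mitosis median at 6h was close to this, at −0.67 and −0.56. At 12h the S phase median of the same pigs was −0.04, −0.13, −0.33, 0.605 and −0.13. Calls required an adjusted p (Benjamini-Hochberg, over all genes) under 0.05 together with a change of at least 2-fold. By this rule 2 members fell at 6h (CENPE and TPX2, both of mitosis) and none rose, beside 11.1% of all genes called (5.5% higher and 5.56% lower). At 12h 3 fell (CENPE, TPX2 and AURKB) and none rose, beside 15.7% of all genes (6.99% higher and 8.66% lower). The share of members called was therefore below that of all genes at both times, and most of their changes were under 2-fold. All 44 members passed the filter on low counts in every fit.

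By the adjusted p alone, 11 of 29 mitosis members and 1 of 15 S phase members were lower at 6h, and 1 mitosis member was higher. Among all genes 28.5% passed this test, 14.9% lower and 13.6% higher. At 12h 14 mitosis members and 1 S phase member were lower, and 1 of each was higher, against 38.4% of all genes (20.8% lower and 17.6% higher). Both times share the 0h libraries, so they are not independent. With no pairing of the libraries of a pig, the count of lower mitosis members was 2 at each time, beside 3.69% and 7.43% of all genes. In the fit of all 27 libraries this count was 2 at 6h and 3 at 12h, beside 4.14% and 7.7% of all genes. With a pig left out it was 4 to 13 at 6h and 5 to 15 at 12h. The lowest count came without pig 44 at 6h and without pig 44 or 77 at 12h. Over the fits with a pig left out, 7.05% to 11.8% of all genes were lower at 6h and 12.9% to 20% at 12h.

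**Figure D2:**
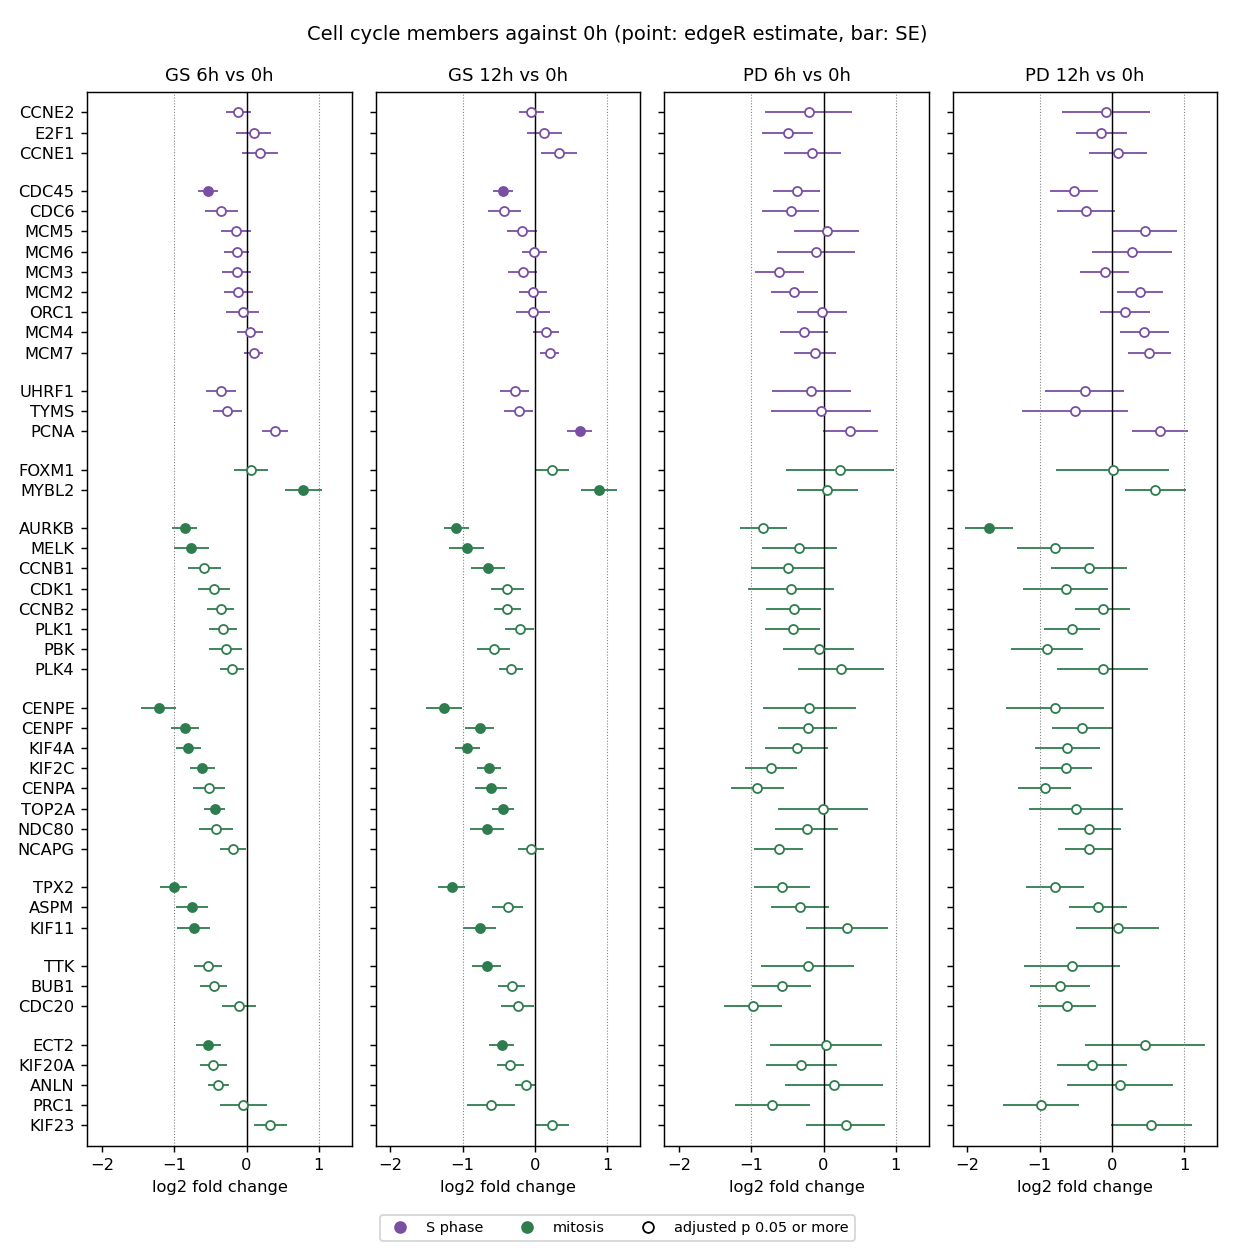
Log2 fold change against 0h (horizontal, point and SE from edgeR) of the 44 members, grouped by role with S phase above and mitosis below, in GS and PD at 6h and 12h. Filled points have an adjusted p under 0.05, and dotted lines mark a 2-fold change; in GS 26 of 29 mitosis members lie left of 0 at each time.

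The kinetochore and chromosome proteins held the largest number of these differences among the roles, with 5 of 8 passing the adjusted p at 6h and 7 of 8 at 12h, all lower. CENPE (ENSSSCG00000023296, chromosome 8, 117889009 to 117965792) is the kinesin that holds kinetochores on microtubules. In pigs 9, 17, 44, 55 and 77, in this order here and below, its level was 23.1, 17.5, 10.01, 7.97 and 9.53 CPM at 0h, 9.42, 7.56, 2.46, 5.89 and 4.68 at 6h and 16.9, 5.08, 2.78, 4.78 and 3.79 at 12h. Every pig was lower at both later times, although the groups of values overlapped, and pig 9 at 12h was far above the other pigs. CENPE fell 2.32-fold at 6h (log2 fold change −1.21, SE 0.25, edgeR adjusted p 0.00368) and 2.39-fold at 12h (log2 fold change −1.26, SE 0.25, edgeR adjusted p 0.00198). The adjusted p was lost with no pairing of libraries and in the fit of all 27 libraries, where it reached 0.144 at 6h and 0.159 at 12h. CENPF, a kinetochore partner of CENPE, was lower in all 5 pigs at both times, with a log2 fold change of −0.85 (SE 0.20, adjusted p 0.00792) at 6h and −0.76 (SE 0.20, adjusted p 0.00946) at 12h. KIF4A, a chromosome-bound kinesin, was also lower in all 5 pigs, at −0.80 (SE 0.17, adjusted p 0.0051) and −0.94 (SE 0.17, adjusted p 0.00144). The microtubule-depolymerising KIF2C had −0.61 (SE 0.17, adjusted p 0.0195) and −0.64 (SE 0.17, adjusted p 0.0113).

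TOP2A, the topoisomerase that untangles sister DNA, measured 72, 53.04, 47.5, 33.4 and 42.7 CPM at 0h, 55.6, 37.8, 26.4, 33.98 and 32.3 at 6h and 53.4, 35.5, 33.9, 40.3 and 24.6 at 12h in GS. Pig 55 did not share the lower level of the other 4 pigs, and the ranges overlapped. Its log2 fold change was −0.44 (SE 0.15, adjusted p 0.0423) at 6h and −0.44 (SE 0.15, adjusted p 0.0328) at 12h, under 2-fold, and the adjusted p stayed under 0.05 in 2 of 12 alternative settings at each time (DESeq2 and without pig 55). MKI67, the coat protein of mitotic chromosomes found here by its description, measured 128, 67.9, 104, 83.1 and 100.2 CPM at 0h, 95.6, 48.7, 66.8, 105 and 93.5 at 6h and 111, 59.5, 89.2, 152 and 67.1 at 12h. It did not pass the test at 6h (log2 fold change −0.29, SE 0.18, edgeR adjusted p 0.233) or 12h (−0.10, adjusted p 0.675), and pig 55 was higher at both times.

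Among the spindle members all 3 passed the adjusted p at 6h and 2 at 12h. TPX2 (ENSSSCG00000007235, chromosome 17, 35431370 to 35484760), which targets Aurora A to the spindle, measured 38.8, 24.3, 25.5, 17.5 and 22.2 CPM at 0h, 14.6, 10.9, 9.31, 15.4 and 13.7 at 6h and 18.5, 8.44, 8.31, 13.6 and 11.6 at 12h. At 6h every pig was below every 0h value, and at 12h only pig 9 reached into the 0h range. It fell 2.01-fold (log2 fold change −1.01, SE 0.19, edgeR adjusted p 0.00263) and 2.22-fold (log2 fold change −1.15, SE 0.19, edgeR adjusted p 0.000766), and its adjusted p stayed under 0.05 in all 12 alternative settings at both times. With the 2-fold threshold, 0 members were called at 6h in the fit of all libraries or without pig 44, so the calls of TPX2 and CENPE were lost there. KIF11, the motor that pushes the spindle poles apart, had −0.73 (SE 0.23, adjusted p 0.03) at 6h and −0.76 (SE 0.23, adjusted p 0.0191) at 12h. ASPM, a protein of the spindle poles, passed at 6h, with −0.75 (SE 0.22, adjusted p 0.0225), and had −0.38 (SE 0.22, adjusted p 0.185) at 12h.

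All 8 mitotic cyclins and kinases had estimates below 0 at both times, and 2 passed the adjusted p at 6h and 3 at 12h. AURKB (ENSSSCG00000028924, chromosome 12, 53410176 to 53423225), the kinase of the chromosomal passenger complex, measured 10.98, 15.6, 24.1, 12.4 and 12.1 CPM at 0h, 5.64, 9.58, 10.7, 8.75 and 6.97 at 6h and 6.34, 8.86, 6.84, 7.92 and 5.35 at 12h. The lowest 0h value, that of pig 9, was above every 6h and 12h value, so 0h did not overlap with the later times, which overlapped with each other. At 6h AURKB was lower by less than 2-fold (log2 fold change −0.85, SE 0.17, edgeR adjusted p 0.0037), and at 12h it fell 2.12-fold (log2 fold change −1.09, SE 0.17, edgeR adjusted p 0.000638). Both kept an adjusted p under 0.05 in all 12 alternative settings. MELK, a kinase made in dividing cells, had −0.76 (SE 0.24, adjusted p 0.0319) and −0.94 (SE 0.24, adjusted p 0.00898).

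CDK1, the kinase that starts mitosis, measured 9.38, 8.37, 5.18, 4.04 and 4.62 CPM at 0h, 6.92, 4.83, 3.67, 3.90 and 3.72 at 6h and 4.87, 6.70, 3.92, 6.33 and 2.63 at 12h. It was lower in 5 of 5 pigs at 6h and 4 of 5 at 12h but did not pass the test, at −0.44 (SE 0.22, adjusted p 0.146) and −0.38 (SE 0.22, adjusted p 0.188). Its cyclin CCNB1 measured 7.85, 11.7, 7.10, 4.28 and 5.03 CPM at 0h, 5.54, 7.62, 2.88, 4.21 and 4.18 at 6h and 6.67, 8.19, 2.36, 4.86 and 2.67 at 12h, lower in 5 of 5 and 4 of 5 pigs. CCNB1 passed the adjusted p at 12h, with −0.65 (SE 0.23, adjusted p 0.041), and not at 6h, with −0.58 (SE 0.23, adjusted p 0.0745). ECT2, the exchange factor that sets the cleavage furrow, was the 1 cytokinesis member to pass, at −0.53 (SE 0.17, adjusted p 0.0359) and −0.46 (SE 0.17, adjusted p 0.0484). Of the checkpoint members, the kinase TTK passed at 12h, with −0.67 (SE 0.20, adjusted p 0.0173), and BUB1 and CDC20 at neither time.

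MYBL2 (ENSSSCG00000007366, chromosome 17, 46256257 to 46287929), the activator B-MYB counted with mitosis for its targets, went the other way. Its level was 20.6, 15.5, 27.2, 16.9 and 16.5 CPM at 0h, 26.6, 14.3, 47.5, 44.5 and 48.6 at 6h and 24.6, 25.6, 47.6, 69.6 and 28.5 at 12h. Pig 17 at 6h was the only library below its own 0h value, and the ranges overlapped at both times. It had 0.79 (SE 0.25, adjusted p 0.0335) at 6h and 0.88 (SE 0.25, adjusted p 0.0149) at 12h, higher in 4 and 5 of 5 pigs, and the adjusted p was lost without pig 44 or 55 at both times and without pig 77 at 6h, and also with no pairing or in the fit of all libraries. Its fellow activator FOXM1 did not pass, at 0.07 and 0.23 (adjusted p 0.857 and 0.452). Of the genes found by another identifier, BUB1B, a checkpoint kinase, was lower by the adjusted p alone, at −0.58 (SE 0.21, adjusted p 0.0491) and −0.63 (SE 0.21, adjusted p 0.0303). AURKA, the kinase of the spindle poles, had 0.02 and −0.02, and CDT1, which loads the helicase, 0.56 (SE 0.26, adjusted p 0.118) and 0.66 (SE 0.26, adjusted p 0.061), neither passing. NUSAP1, a spindle protein, was higher in 5 of 5 pigs, at 0.93 (SE 0.16, adjusted p 0.00166) and 0.91 (SE 0.16, adjusted p 0.00114).

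**Figure D3:**
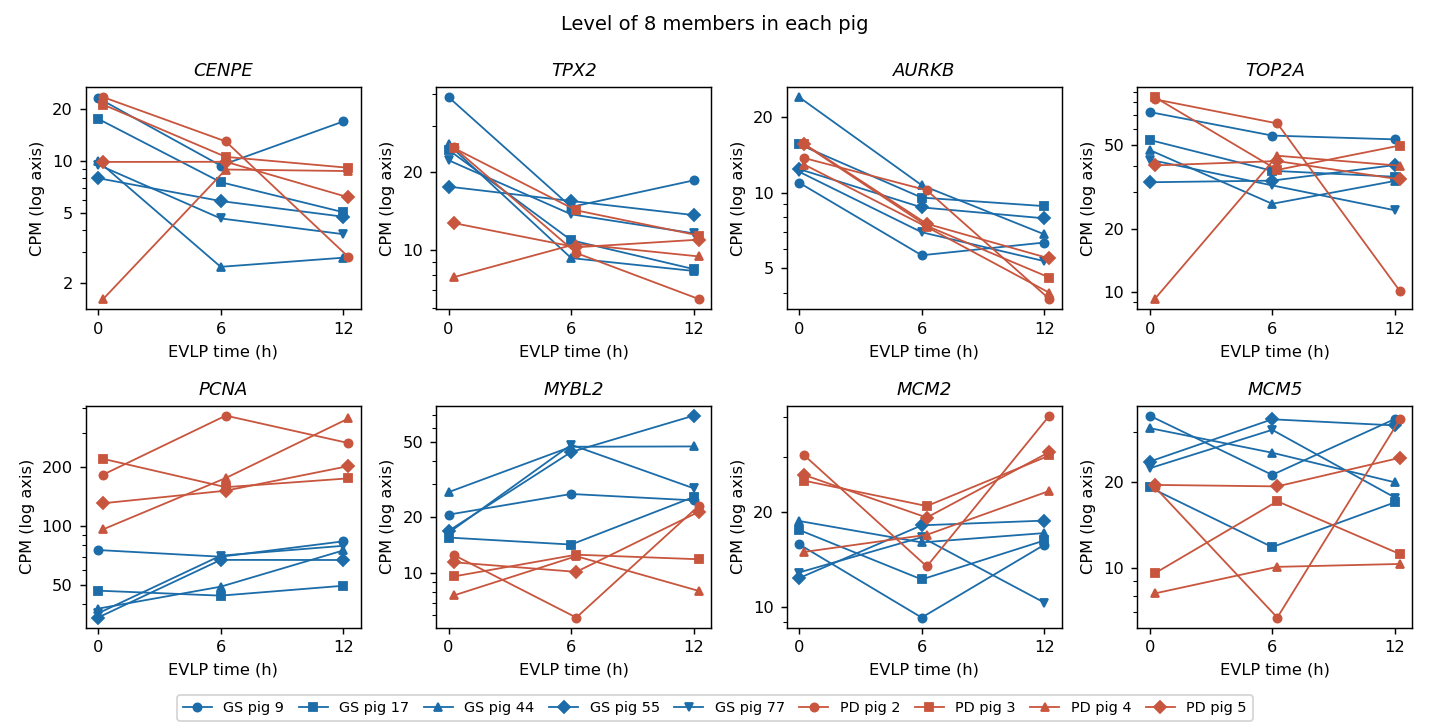
CPM on a log axis against EVLP time (h) of 8 members in each GS pig (blue) and PD pig (red, drawn slightly to the right), lines joining the libraries of a pig. AURKB is lower at 12h than at 0h in all 5 GS and 4 PD pigs, and MYBL2 is higher at 12h in each of them.

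The S phase members of GS showed no common direction, from −0.53 for CDC45 to 0.39 for PCNA at 6h and from −0.45 to 0.61 for the same genes at 12h. PCNA (ENSSSCG00000030642, chromosome 17, 14125814 to 14185276), the clamp that holds polymerases on DNA, measured 75.8, 47.04, 38.1, 34.3 and 36.03 CPM at 0h, 70.1, 44.4, 49.3, 67.5 and 70.96 at 6h and 83.96, 49.8, 75.5, 67.4 and 79.7 at 12h. At 12h all 5 pigs were above their own 0h level, pig 17 by the least, and the ranges overlapped. It passed the adjusted p at 12h, at 0.61 (SE 0.18, adjusted p 0.0167), and not at 6h, at 0.39 (SE 0.18, adjusted p 0.115). Without pig 44, 55 or 77, with no pairing or in the fit of all libraries the adjusted p was no longer under 0.05. CDC45, which completes the active helicase, was lower in 5 of 5 pigs at both times, at −0.53 (SE 0.14, adjusted p 0.0137) and −0.45 (SE 0.14, adjusted p 0.022). Its adjusted p was no longer under 0.05 in 6 of 12 alternative settings at 6h, among them those without pig 9, 17 or 55, and in 8 of 12 at 12h, among them those without pig 9, 17, 44 or 55. At both times these included no pairing, only the 2 times compared and all libraries.

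The MCM2 to MCM7 subunits form the ring of the helicase, and none of the 6 passed the test in GS. MCM2 measured 15.8, 17.6, 18.8, 12.4 and 12.9 CPM at 0h, 9.28, 12.3, 16.1, 18.2 and 16.7 at 6h and 15.8, 16.3, 17.2, 18.8 and 10.3 at 12h, with pigs 55 and 77 higher and the other 3 lower at 6h. Its log2 fold change was −0.12 (SE 0.20, adjusted p 0.696) at 6h and −0.03 (SE 0.20, adjusted p 0.922) at 12h. MCM5 measured 34.3, 19.2, 31.04, 23.7 and 22.4 CPM at 0h, 21.3, 11.9, 25.4, 33.3 and 30.6 at 6h and 33.4, 17.02, 20.02, 31.7 and 17.7 at 12h, with the same division of pigs at 6h. Its estimates were −0.14 (SE 0.21, adjusted p 0.641) and −0.19 (SE 0.21, adjusted p 0.495).

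Cyclin E2 (CCNE2), which drives the entry into S phase with CDK2, measured 6.99, 10.02, 8.12, 6.72 and 6.65 CPM at 0h, 9.52, 8.97, 5.77, 6.16 and 6.30 at 6h and 11.5, 8.47, 6.75, 5.74 and 6.51 at 12h. It differed little, at −0.11 (SE 0.17, adjusted p 0.657) and −0.05 (SE 0.17, adjusted p 0.822). E2F1, the factor that opens this programme, measured 6.63, 7.20, 10.8, 5.27 and 5.18 CPM at 0h, 4.29, 5.34, 11.2, 11.1 and 7.55 at 6h and 6.45, 7.09, 8.57, 12.3 and 5.61 at 12h, with pigs 44, 55 and 77 higher and pigs 9 and 17 lower at 6h. Neither time passed, at 0.10 (SE 0.24, adjusted p 0.785) and 0.13 (SE 0.24, adjusted p 0.689). RRM2, the subunit of ribonucleotide reductase that makes DNA precursors, was found by its NCBI gene number and measured 30.7, 27.6, 32.8, 21.3 and 21.3 CPM at 0h, 22.3, 16, 30.9, 41.9 and 36.7 at 6h and 17.1, 17.99, 40.9, 41.3 and 38.6 at 12h. Pigs 55 and 77 were higher and pigs 9 and 17 lower at both times, so its estimates of 0.02 and 0.06 (SE 0.25 at both, adjusted p 0.958 and 0.861) are means of pigs that differ in direction.

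Summed within a library, where long and abundant genes weigh most, the 29 mitosis members gave 514, 393, 349, 259 and 298 CPM at 0h, 344, 271, 229, 296 and 269.6 at 6h and 406, 277, 244, 348 and 196 at 12h in GS. The sum was lower in 4 of 5 pigs at both times, and pig 55 was higher. The 15 S phase members summed to 361, 300.1, 318, 257 and 254 CPM at 0h, 282, 239, 288, 350.3 and 351 at 6h and 380.4, 290.1, 309, 386 and 282 at 12h, lower in 3 of 5 and 2 of 5 pigs. The ratio of the S phase sum to the mitosis sum was higher than at 0h in 5 of 5 GS pigs at both times. Its log2 change was 0.35 ± 0.18 at 6h and 0.45 ± 0.21 at 12h (mean ± SD, n = 5), or 0.27 and 0.33 with PCNA left out, again in 5 of 5 pigs. Pig 55 therefore shared the shift of S phase against mitosis while its mitosis sum was higher. The S phase members had a median RefSeq transcript length of 3226 bases and a GC content of 53.32%, and the mitosis members 3591 bases and 43.96%. With the trend on length and GC content removed from each library, the medians were −0.35 and −0.32 for mitosis and −0.03 and 0.06 for S phase, at 6h and 12h.

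**Figure D4:**
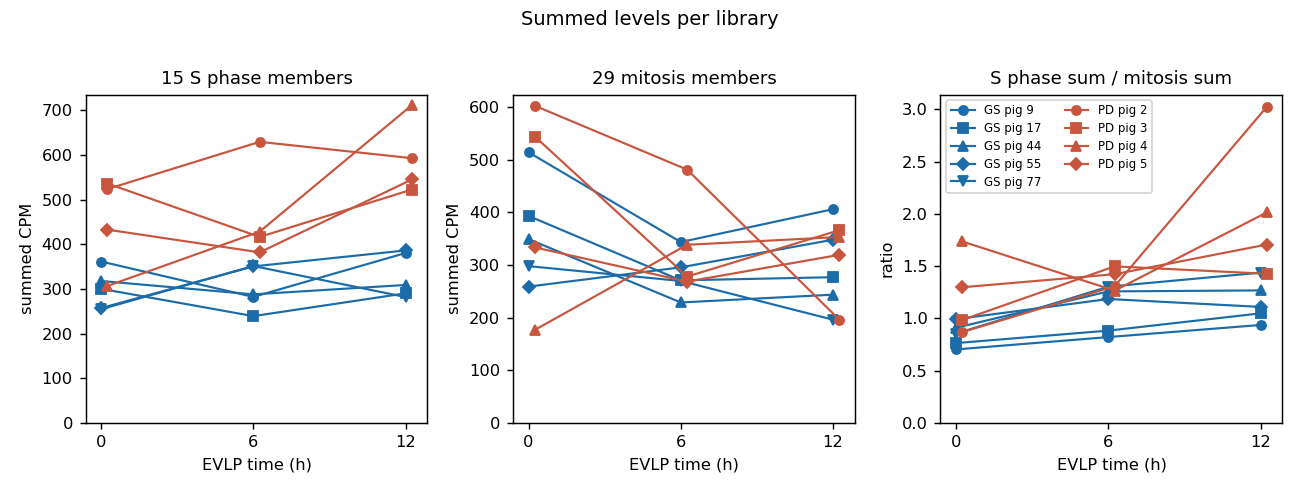
Summed CPM of the 15 S phase members (left) and the 29 mitosis members (middle), and their ratio (right), against EVLP time (h) in each GS pig (blue) and PD pig (red, drawn slightly to the right). The ratio is above its 0h value in 5 of 5 GS pigs at both times, while PD pig 2 at 12h and PD pig 4 at 0h have the lowest mitosis sums of PD.

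In PD the same question gave wider spreads. Of the members, 22 of 29 mitosis and 13 of 15 S phase members had estimates below 0 at 6h, and none was called, beside 0.142% of all 15545 genes tested (0.135% higher and 0.00643% lower). At an unadjusted p under 0.05 there were 3 (AURKB, CENPA and CDC20), all lower. DESeq2 called no member either, beside 2.81% of all genes by its adjusted p alone. At 12h 1 member fell, AURKB, and none rose, beside 5.98% of all genes (3.22% higher and 2.76% lower). The median log2 fold change at 12h was −0.50 for mitosis, 0.08 for S phase and −0.05 for all genes, and at 6h −0.33, −0.17 and −0.02. The biological coefficient of variation of the fit was 0.489 in PD and 0.259 in GS.

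AURKB in PD measured 13.8, 15.6, 12.97 and 15.7 CPM at 0h, 10.2, 7.39, 7.32 and 7.53 at 6h and 3.78, 4.60, 4 and 5.48 at 12h in pigs 2, 3, 4 and 5, in this order here and below. Every pig was lower at 6h and lower again at 12h, with no overlap between the times. It fell 3.26-fold at 12h (log2 fold change −1.70, SE 0.33, edgeR adjusted p 0.0217), and the 6h value was −0.84 (SE 0.32, adjusted p 0.454). The call at 12h was lost without pig 3, 4 or 5 and in the fit of only the 0h and 12h libraries, where the adjusted p reached 0.259. Without pig 3 or pig 5 no gene at all passed the adjusted p. The share of all genes passing was 2.55% without pig 4 and 0.0268% with only the 0h and 12h libraries. CENPA, the histone that marks centromeres, measured 9.89, 8.59, 12.7 and 9.14 CPM at 0h, 7.46, 3.38, 6.41 and 4.95 at 6h and 7.23, 4.22, 3.86 and 6.25 at 12h. It was lower in 4 of 4 pigs at both times with no overlap with 0h, yet without passing, at −0.92 (SE 0.36, adjusted p 0.458) and −0.93 (SE 0.37, adjusted p 0.146).

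Other mitosis members of PD turned on pigs 2 and 4. TOP2A measured 82.8, 84.8, 9.29 and 40.1 CPM at 0h, 63.6, 38.2, 44.6 and 42.1 at 6h and 10.1, 49.9, 39.99 and 34.4 at 12h, so that pig 4 was low at 0h and pig 2 at 12h. Its estimates were −0.01 (SE 0.62, adjusted p 0.995) and −0.50 (SE 0.65, adjusted p 0.684). CDK1 measured 37.6, 35.98, 7.06 and 19.6 CPM at 0h, 38.5, 7.34, 18.2 and 11.02 at 6h and 8.42, 14.99, 18.3 and 14.7 at 12h, with the same 2 low libraries and a low value of pig 3 at 6h. It had −0.45 (SE 0.59, adjusted p 0.784) and −0.64 (SE 0.59, adjusted p 0.546). CCNB1 measured 27.4, 27.4, 7.69 and 15.7 CPM at 0h, 21.9, 8.90, 14.9 and 9.43 at 6h and 6.80, 15.6, 20.96 and 15.4 at 12h, with −0.49 (SE 0.51, adjusted p 0.733) and −0.32 (SE 0.52, adjusted p 0.75). MKI67 measured 29.99, 25.9, 12.9 and 18.96 CPM at 0h, 10.7, 30.7, 27.8 and 26.5 at 6h and 23.96, 28.96, 16.3 and 35.6 at 12h, with 0.13 (SE 0.42, adjusted p 0.91) and 0.23 (SE 0.41, adjusted p 0.772), and it was higher in 3 of 4 pigs at both times.

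The mitosis sum of PD was 603, 544, 177 and 333 CPM at 0h, 481, 278, 338 and 268 at 6h and 196, 366, 353 and 319 at 12h. It was lower than at 0h in 3 of 4 pigs at both times, and pig 4, the lowest of all 27 libraries at 0h, was higher. Without the 12h library of pig 2 the median of mitosis at 12h was −0.24, and without the 0h library of pig 4 it was −0.65. AURKB was called in both of these fits, beside 27.4% and 2.9% of all genes by the adjusted p alone. At 6h the median of mitosis was −0.11 without pig 3 and −0.64 without pig 4, and at 12h it was −0.15 without pig 2. Over all 29 mitosis members the estimates ran from −0.97 for CDC20 to 0.32 for KIF11 at 6h and from −1.70 for AURKB to 0.60 for MYBL2 at 12h, and MYBL2 was higher at 12h in 4 of 4 pigs without passing (adjusted p 0.416). AURKA, found by its identifier, was also higher at 12h in 4 of 4 pigs without passing, at 1.08 (SE 0.41, adjusted p 0.132), BUB1B had −0.73 (SE 0.76, adjusted p 0.595) and CDT1 −0.03 (SE 0.67, adjusted p 0.982).

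Among the S phase members of PD, 5 of the 6 MCM genes had an estimate above 0 at 12h, from 0.28 for MCM6 to 0.51 for MCM7, none passing the test. The 15 ran from −0.61 for MCM3 to 0.37 for PCNA at 6h and from −0.53 for CDC45 to 0.67 for PCNA at 12h. MCM2 measured 30.3, 25.2, 14.97 and 26.2 CPM at 0h, 13.5, 20.9, 16.97 and 19.2 at 6h and 40.5, 30.3, 23.4 and 31.04 at 12h. It was higher at 12h in 4 of 4 pigs, with overlap of the ranges, at 0.39 (SE 0.32, adjusted p 0.496), and at 6h it had −0.40 (SE 0.32, adjusted p 0.671). MCM5 measured 19.3, 9.59, 8.15 and 19.6 CPM at 0h, 6.70, 17.2, 10.1 and 19.4 at 6h and 33.3, 11.2, 10.3 and 24.4 at 12h, also higher at 12h in 4 of 4 pigs, at 0.46 (SE 0.44, adjusted p 0.564), and at 6h 0.04 (SE 0.44, adjusted p 0.977). MCM7 had 0.51 (SE 0.30, adjusted p 0.313), its 12h values of 50.4, 76.3, 67.1 and 63.5 CPM all lying above the 0h values of 43.3, 42.6, 47.5 and 43.4.

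PCNA measured 184, 221, 96.7 and 131 CPM at 0h, 368, 159, 177 and 152 at 6h and 266, 176, 355 and 203 at 12h, with pig 2 far above the others at 6h. Its estimates were 0.37 (SE 0.38, adjusted p 0.731) and 0.67 (SE 0.39, adjusted p 0.318). CCNE2 measured 8.69, 10.8, 11.2 and 6.64 CPM at 0h, 11.2, 5.36, 6.99 and 7.36 at 6h and 1.08, 9.96, 16.1 and 10.8 at 12h, pig 2 at 12h being the low value, with −0.20 (SE 0.60, adjusted p 0.906) and −0.08 (SE 0.61, adjusted p 0.95). E2F1 measured 14.2, 8.32, 8.20 and 8.92 CPM at 0h, 8.16, 8.38, 4.66 and 6.54 at 6h and 17.6, 6.28, 5.86 and 8.41 at 12h, highest in pig 2 at 0h and 12h, with −0.49 (SE 0.35, adjusted p 0.651) and −0.15 (SE 0.35, adjusted p 0.831). RRM2 measured 22.5, 20.2, 16.8 and 20.3 CPM at 0h, 16.8, 20.04, 22.1 and 22.2 at 6h and 20.4, 16.5, 15.9 and 23.1 at 12h, a narrow range, with 0.03 (SE 0.30, adjusted p 0.976) and −0.08 (SE 0.30, adjusted p 0.895). The S phase sum was 524, 536, 307 and 433 CPM at 0h, 629, 416, 428 and 382 at 6h and 593, 523, 712 and 545 at 12h. Its ratio to the mitosis sum was higher at 12h in 4 of 4 pigs (log2 change 0.74 ± 0.72, SD, n = 4), with 1.80 in pig 2 and 0.38 ± 0.16 over the other 3, and in 3 of 4 pigs with PCNA left out. At 6h the change was 0.22 ± 0.50 and above 0 in 3 of 4 pigs, and with PCNA left out −0.03 ± 0.56 and above 0 in 1 of 4.

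Whether dialysis altered the change was tested as an interaction of group and time over all 27 libraries. None of the 44 members passed the adjusted p at 6h or 12h by edgeR, as for 0.0% of all 17884 genes, and none had an unadjusted p under 0.05. DESeq2 called no member either, beside 0.0391% of all genes at 6h and 0.0839% at 12h. In simulated data for the 12h comparison edgeR recovered 1 of 66 genes changed by log2 1 and 25 of 66 changed by log2 2. A difference of this size could therefore be missed. At 6h the smallest p by edgeR were those of CDC20, which activates the anaphase promoting complex, and KIF11. The change of CDC20 was lower in PD than in GS (log2 difference −0.88, SE 0.44, p 0.0602, edgeR adjusted p 0.783). It measured 16.9, 11.3, 10.5 and 14.98 CPM at 0h, 4.93, 7.03, 7.32 and 6.59 at 6h and 14.9, 5.41, 4.76 and 11.6 at 12h in PD and 6.51, 11.3, 8.79, 5.59 and 6.82 CPM at 0h, 4.40, 7.83, 5.81, 9.41 and 9.76 at 6h and 5.69, 7.39, 6.21, 9.45 and 5.21 at 12h in GS. KIF11 differed by 1.02 (SE 0.60, edgeR adjusted p 0.783). In PD it measured 30.2, 34.6, 4.59 and 11 CPM at 0h, 35.9, 15.3, 22.6 and 15.4 at 6h and 10.1, 21.98, 22.4 and 16.6 at 12h, and in GS 26.4, 21.8, 15.1, 11.8 and 14.3 CPM at 0h, 14.99, 14.5, 6.04, 11.9 and 8.72 at 6h and 20.4, 15.01, 5.30, 13.7 and 5.25 at 12h, so the low 0h value of PD pig 4 enters this difference.

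At 12h AURKB was nearest, its change being lower in PD (log2 difference −0.65, SE 0.32, edgeR adjusted p 0.838), followed by KIF11 at 0.80 (SE 0.60, adjusted p 0.921). The median difference over the mitosis members was 0.14 at 6h and 0.08 at 12h, and over S phase −0.12 and 0.04. The mitosis median took either sign when a pig was left out, from −0.15 (without PD pig 4) to 0.45 (without PD pig 3) at 6h and from −0.25 (without PD pig 4) to 0.43 (without PD pig 2) at 12h. The SE of this difference at 12h ran from 0.35 for MCM2 to 0.63 for TOP2A among the 10 genes followed in every comparison. An exact 2-sided Wilcoxon test of the log2 ratios of 4 PD against 5 GS pigs gave a smallest p of 0.0635 at 6h and 0.111 at 12h among the members (adjusted 0.613 and 0.824, smallest p possible 0.0159). The smallest at 6h was that of CENPE, whose mean log2 ratio was higher in PD than in GS by 1.35. At 12h CENPE differed by 0.61 (Wilcoxon p 0.73), and TPX2 differed by 0.47 at 6h and 0.35 at 12h (Wilcoxon p 0.413 and 0.73). No member had groups of ratios without overlap, beside 3.12% and 2.09% of all genes.

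Between 6h and 12h no member passed by edgeR in either group, as for 0.0% of all genes. DESeq2 called no member either, beside 0.0108% of all genes in GS and 1.44% in PD. In GS no member had an unadjusted p under 0.05. The smallest were ANLN, an anillin of the cleavage furrow, at 0.26 (SE 0.15, adjusted p 1), and ASPM, at 0.37 (SE 0.22, adjusted p 1). ANLN measured 12.02, 11.02, 7.73, 9.41 and 6.61 CPM at 6h and 18.8, 13.4, 9.88, 10.2 and 6.73 at 12h, higher in all 5 pigs, and ASPM 10.4, 9.42, 3.74, 4.94 and 4.66 and 13.6, 8.80, 7.66, 7.92 and 4.30. In PD 2 members had an unadjusted p under 0.05, AURKB at −0.87 (SE 0.33, adjusted p 0.433) and MCM2 at 0.79 (SE 0.32, adjusted p 0.461). The genes followed in every comparison lay in GS between −0.07 for CCNB1 and 0.22 for PCNA.

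Before EVLP the 2 groups already differed. At 0h 16 of the 44 members had an adjusted p under 0.05, 11 higher and 5 lower in PD, beside 40.6% of all 16477 genes (21.3% higher and 19.3% lower), so the members were called about as often as other genes. The 11 were the S phase members MCM2, MCM6 and PCNA and the mitosis members CDK1, CCNB1, PBK, PRC1, CENPA, NCAPG, NDC80 and CDC20. The 5 were MCM5 and UHRF1 of S phase and PLK1, FOXM1 and MYBL2 of mitosis. Of 13 alternative settings, MCM2 lost its call in 7 (no filter on low counts and without GS pig 9, 55 or 77 or PD pig 2, 3 or 5) and MCM5 in 7 (a trend on transcript length and GC content removed and without GS pig 9, 44, 55 or 77 or PD pig 3 or 4). CDC20 lost it in 7, without GS pig 9, 55 or 77 or PD pig 2 or 5 among them, and NDC80 in 9, without GS pig 17, 44, 55 or 77 or PD pig 2, 3 or 5 among them. NCAPG lost it without PD pig 2.

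PBK, a mitotic kinase, measured 2.99, 4.10, 1.70, 1.74 and 1.51 CPM in GS and 25.6, 18.9, 2.41 and 9.24 in PD, with PD pig 4 inside the GS range. It was 6.01-fold higher in PD (log2 fold change 2.59, SE 0.56, edgeR adjusted p 0.00315). PRC1, which bundles microtubules of the central spindle, had only 5 to 25 counts per library in GS, at 0.148, 0.698, 0.302, 0.276 and 0.226 CPM, and measured 2.73, 1.74, 1.03 and 1.70 in PD. The ranges did not overlap, and the difference was 5.65-fold (log2 fold change 2.50, SE 0.50, edgeR adjusted p 0.00193). CDK1, with the levels given above, was 4.07-fold higher (log2 fold change 2.03, SE 0.44, edgeR adjusted p 0.00321), with PD pig 4 inside the GS range. FOXM1 measured 2.99, 2.62, 3.03, 2.80 and 2.65 CPM in GS and 1.15, 1.11, 0.0574 and 0.637 in PD, the lowest being a single count in pig 4. It was 3.70-fold lower (log2 fold change −1.89, SE 0.55, edgeR adjusted p 0.0161) and without overlap, and the call was lost with the trend on length and GC content removed.

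Of the genes followed in every comparison, PCNA was higher at 1.81 (SE 0.30, adjusted p 0.000605) and CCNB1 at 1.48 (SE 0.39, adjusted p 0.00981). MCM2 was higher at 0.68 (SE 0.24, adjusted p 0.0367), and MCM5 lower at −0.85 (SE 0.31, adjusted p 0.0428). MKI67, by its description, was 4.29-fold lower (log2 fold change −2.10, SE 0.28, edgeR adjusted p 0.000152) with no overlap. TOP2A (0.16), E2F1 (0.54), CCNE2 (0.32) and RRM2 (−0.38) did not pass, with adjusted p of 0.815, 0.156, 0.32 and 0.162. AURKB differed by −0.01 (SE 0.25, adjusted p 0.979).

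The called members also differed in length and GC content. The 11 members higher in PD had a median RefSeq length of 2339 bases and a GC content of 43.96%, the 5 lower 3440 bases and 59.71%, and the 28 not called 3832.5 bases and 45.23%. With the trend on length and GC content removed, 8 of 44 members were called (7 higher, MCM3 newly among them, and 1 lower), against 39.2% of the 12843 genes tested in that fit, of which 42.2% were called before the removal. PCNA then had a log2 difference of 0.58, MCM5 −0.66 and FOXM1 −1.44, none passing, and CCNB1, CENPA, CDC20, NDC80, UHRF1 and MYBL2 lost their calls as well. CDK1, MCM6, PBK, PLK1 and PRC1 kept an adjusted p under 0.05 in all 13 alternative settings. Some cell type markers were also called at 0h, to be read beside 40.6% of all genes (21.3% higher and 19.3% lower). The alveolar type 2 markers summed to 7894 to 10560 CPM in GS and 27170 to 79000 in PD, with 2 of 7 called higher (SFTPC by 3.56) and 1 lower. All 3 plasma cell markers were higher, 2 of 4 neutrophil markers higher (S100A8 3.27) and 1 lower, and HBB of red cells higher (4.96). Of 7 endothelial markers 4 were lower (ERG −2.15, CDH5 −1.70) and 1 higher, and 3 of 8 macrophage markers lower. Among lymphocyte markers 2 of 5 B markers were higher and 2 lower, and 2 of 6 T markers tested lower. Fibroblast markers were called in both directions (COL1A2 and DCN higher, COL1A1 and PDGFRA lower), as were ciliated markers (TEKT1 higher, RSPH1 lower) and platelet markers (PPBP higher, GP9 and ITGA2B lower). AQP5 and PDPN of alveolar type 1 cells were higher and MYH11 of smooth muscle lower. Their part in the 0h differences was not tested. Depth and group cannot be told apart at 0h, since every PD library was shallower than every GS library, and the extraction kit of each library is not given in the sources used here.

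**Figure D5:**
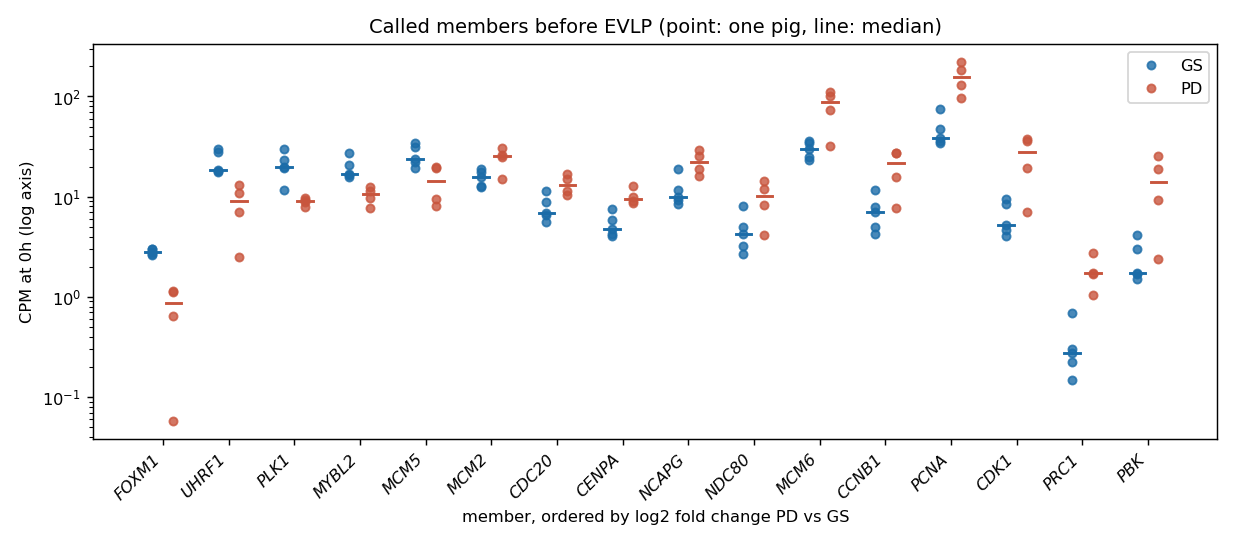
CPM at 0h on a log axis of the 16 members called between the groups, each point 1 pig (5 GS in blue, 4 PD in red) and each line the median, ordered from FOXM1, lowest in PD relative to GS, to PBK, highest. PRC1 and PCNA do not overlap between the groups, and PD pig 4 pulls the PD range of PBK and CDK1 down into that of GS.

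The genes around the members were read from lists by function. Of 7 CDK inhibitors, which brake the cycle, CDKN1A (p21) rose in GS by 1.68 (SE 0.29, adjusted p 0.00166) at 6h and 1.59 (SE 0.29, adjusted p 0.00131) at 12h. In PD it rose at 12h, by 2.09 (SE 0.38, adjusted p 0.0185), and had 1.94 (SE 0.38, adjusted p 0.0815) at 6h. CDKN2D rose in GS at 12h, by 1.02 (SE 0.23, adjusted p 0.00385), and no inhibitor was called lower. By the adjusted p alone CDKN1B (p27) was lower in GS at both times, at −0.60 (SE 0.18, adjusted p 0.0244) and −0.68 (SE 0.18, adjusted p 0.0103), while CDKN2D was higher at 6h, at 0.74 (SE 0.23, adjusted p 0.0278), and CDKN2B at 12h, at 0.55 (SE 0.14, adjusted p 0.00917). This made 2 inhibitors higher and 1 lower at 6h and 3 and 1 at 12h, beside 13.6% of all genes higher and 14.9% lower at 6h and 17.6% and 20.8% at 12h. None of 6 D-type cyclins and G1 kinases was called against 0h in either group at either time. By the adjusted p alone 1 of them, CDK4, was lower in GS at 12h, at −0.31 (SE 0.10, adjusted p 0.0251). Before EVLP CCND2 was higher in PD than in GS, at 2.15 (SE 0.28, adjusted p 0.00014). Of 16 RB, E2F and DREAM genes, the repressor E2F6 rose in GS at 6h (1.19) and 12h (1.57) and in PD at 12h (2.12). The MuvB subunit LIN9 fell in GS at 6h (−1.15), and LIN52 rose in PD at 12h (2.00). Of all genes 5.5% were called higher and 5.56% lower in GS at 6h, 6.99% and 8.66% at 12h, and 3.22% higher in PD at 12h. By the adjusted p alone 2 of the 16 were higher and 3 lower in GS at 6h, and 5 and 3 at 12h, beside the shares given for the inhibitors. The lower genes were RB1 (−0.47 and −0.50), RBL2 (−0.88 and −0.83) and LIN9 (−0.93 at 12h).

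Of 61 further mitosis genes, 59 were tested in GS. At 6h 5 were called lower (SGO2, DEPDC1, HMMR and KIF14 the furthest, at −1.33, −1.22, −1.20 and −1.19) and 1 higher, with a median of −0.47. The higher gene was WEE1, the kinase that holds CDK1 inactive, at 1.24. At 12h 4 were lower (HMMR −1.47, SGO2 −1.25, KIF15 −1.16 and KNL1 −1.05) and WEE1 again higher (1.35), with a median of −0.39. Of all genes 5.56% were called lower at 6h and 8.66% at 12h, so the share of these 59 called was not far from that of other genes. By the adjusted p alone 21 of 59 were lower at each time, beside 14.9% and 20.8% of all genes, and 2 and 3 were higher, beside 13.6% and 17.6%. In PD the median at 12h was −0.43, with LMNB1 of the nuclear lamina called higher (1.70).

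Of 44 further replication genes, the origin subunit ORC5 fell in GS at 6h (−1.74) and 12h (−1.74) and in PD at 12h (−2.03). TIMELESS, a fork protector, fell in GS at 12h (−1.05), DBF4, which activates the origin kinase CDC7, rose at 6h (1.05), and GINS3 rose in PD at 12h (1.29). By the adjusted p alone, 15 were lower and 6 higher at 6h in GS, and 16 and 11 at 12h, beside 14.9% of all genes lower and 13.6% higher at 6h and 20.8% and 17.6% at 12h, with medians of −0.23 and −0.22. None of 16 anaphase promoting complex genes was called against 0h, and 3 at 6h and 5 at 12h were lower in GS by the adjusted p alone, beside the same shares of all genes. Between the groups at 0h, 9 of the 16 were higher and 2 lower in PD by the adjusted p, beside 21.3% and 19.3% of all genes.

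The summed levels of lymphocyte markers were lower than at 0h in most pigs. By the adjusted p alone 3 of 5 B and 4 of 6 T markers tested were lower in GS at 6h and 4 and 5 at 12h, beside 14.9% and 20.8% of all genes. In PD none was lower at 6h by edgeR (1 of each at an unadjusted p under 0.05) and 1 of each at 12h, beside 0.00643% and 2.76% of all genes. The 5 B lymphocyte markers summed to 55.47 to 181.5 CPM in GS at 0h, 26.75 to 100.3 at 6h and 25.88 to 112.9 at 12h, lower in 5 and then 4 of 5 pigs. In PD they went from 40.42 to 105.1 at 0h to 22.89 to 45.39 at 6h and 23.27 to 44.61 at 12h, lower in 4 of 4 pigs at both times. MS4A1 (CD20) was called lower in GS at 6h (−1.29) and 12h (−1.62) and in PD at 12h (−2.39), and PAX5 in GS at both times. The 7 T lymphocyte markers summed to 196.8 to 323.1 CPM in GS at 0h, 104.2 to 250.5 at 6h and 88.74 to 206.4 at 12h, lower in every pig at both times. In PD they summed to 141 to 237.8, 99.83 to 171 and 85.68 to 110.1 CPM, lower in 4 of 4 pigs. No B or T marker was under 3 counts in all libraries. The mitosis sum was higher than at 0h in GS pig 55 and PD pig 4. In PD pig 4 at 6h the log2 change was 0.94 for the mitosis sum, −0.93 for the B markers and −0.05 for the T markers, and at 12h the mitosis sum was 353 CPM against 177 at 0h, with −1.77 for the B markers and −0.72 for the T markers. In GS pig 55 they were 0.19, −0.31 and −0.37 at 6h and 0.43, 0.12 and −0.21 at 12h, so that at 12h the B markers were higher as well. In PD pig 2 at 12h they were −1.62, −0.10 and −0.81. Single markers of endothelium and alveolar type 2 cells were also called lower in GS at 6h. Of 7 endothelial markers KDR, a receptor for VEGF, had −1.15 (SE 0.18, adjusted p 0.00115) at 6h and −0.96 at 12h, where the change was under 2-fold. Estimates were above 0 for 4 of these 7 at both times. By the adjusted p alone TEK was also lower at both times (−0.50 and −0.62), and PECAM1 was higher at 12h (0.44, SE 0.12, adjusted p 0.0102). Of 7 alveolar type 2 markers SLC34A2, a phosphate transporter, had −1.14 (SE 0.25, adjusted p 0.00573) and −0.81, again under 2-fold at 12h. Estimates were above 0 for 2 of these 7 at 6h and 5 at 12h. SFTPA1 was higher at 12h by the adjusted p alone (0.53, SE 0.19, adjusted p 0.0376). HBB was the only 1 of 3 red cell markers tested to be called in GS, lower at both times (−1.57 and −1.50). All 3 had estimates below 0, and the red cell markers summed to only 0.7993 to 10.92 CPM in GS at 0h. Of 5 alveolar type 1 markers, only PDPN was called in GS, higher at both times, and 2 of the 5 had estimates below 0 at each time. PDPN was also called higher in PD at 12h. No endothelial, alveolar type 2 or red cell marker was called in PD, and of 8 macrophage and 5 fibroblast markers none was called against 0h in either group. Ciliated cell markers were lower in GS at 12h, 3 of 5 being called, beside 8.66% of all genes called lower. The part of these cells in the mitosis result was not tested.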

How the data were processed

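RNA-seq was made with a stranded mRNA kit from lung biopsies of 5 GS and 4 PD pigs at 0h, 6h and 12h (27 libraries, 1 biopsy each). The deposited file holds whole-number counts per Ensembl gene. The submitters' processing notes name bcl2fastq 2.2.18.12, cutadapt 1.15, TopHat2 2.0.14, featureCounts of Subread 1.6.0, DESeq2 1.18.1 and the build Sscrofa11.1. How counting treated strand and shared reads is not given in the sources used here. The authors deposited the counts unnormalized.

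Genes passing edgeR's filterByExpr (minimum count 10) were tested with edgeR 4.0.16 in R 4.3.3 (TMM, robust quasi-likelihood F test, 2-sided), within each group against 0h with the pig as block, over all 27 libraries for the interaction, and over 9 libraries for the groups at 0h. P-values were adjusted over all genes tested (Benjamini-Hochberg). A call against 0h also required a fold change of at least 2. Libraries of a pig come from the same lung, and their deviations from the group means correlated at 0.513 in GS and 0.112 in PD (other pigs −0.116 and −0.0337, 17884 genes). No 2 libraries agreed within sampling noise. Alternatives were DESeq2 1.42.0, its size factors, no filter, no block, other sets of libraries, each pig left out, column totals and, for the group difference, an exact Wilcoxon test. The script was tested on simulated data.

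The genes named, 10 of them followed in every comparison, are, per comparison, the 4 called members of largest change (with none called, the 2 of smallest p), plus MKI67, TOP2A, CDK1, CCNB1, MCM2, MCM5, PCNA, RRM2, CCNE2 and E2F1. The other members named were chosen after their values were seen. The members and lists were chosen with earlier results of these data known. Promoters and transcript lengths are from RefSeq (Sscrofa11.1), matched by symbol or gene identifier.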

Additional observations from a re-analysis of the deposited data

Results flagged for a closer look

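In 7 of 138 groups of 4 or 5 pigs, 1 library of a member lay far from the others. Chance alone gives about 1 in 20, so this number is about what chance gives. In PD at 6h pig 2 was the highest for PBK at 32.6 CPM (the others 5.12 to 8.38), for PCNA at 368 CPM (152 to 177) and for AURKB at 10.2 CPM (7.32 to 7.53). The same pig was the highest for E2F1 at 0h, at 14.2 CPM (the others 8.2 to 8.92). ASPM was the lowest in PD pig 4 at 12h, at 5.03 CPM (6.55 to 6.69). In GS, CENPE at 12h was the highest in pig 9, at 16.9 CPM (2.78 to 5.08), and PRC1 at 0h in pig 17, at 0.698 CPM (0.148 to 0.302).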

How the results depend on the processing

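Of all counts, medians and sums recomputed, 343 were within 1.5 times the count or 1 SD between pigs of their value and 22 were not. In PD that SD is wide: the mitosis median ran from −0.64 to −0.11 at 6h and −0.65 to −0.15 at 12h, and that of the difference between the groups at 12h from −0.32 to 0.43. For the members with an adjusted p under 0.05 in a comparison (47 results), 388 recomputed tests kept it and 193 lost it, with no change of direction. At 0h, leaving out the library of PD pig 4 is the fit without that pig and was counted once. The number of members called in GS at 6h (2) was 1 with DESeq2, with DESeq2 size factors, with no filter on low counts, with no replicate block and with only the 2 time points compared. It was 0 in the fit of all libraries, 1 with the length and GC trend removed, and 13 with no fold change threshold. With a pig left out it was 0 to 2 (0 without pig 44, 1 without pig 9 or 17). In GS at 12h (3) it was 17 with no fold change threshold and 2 to 5 with a pig left out (5 without pig 9 or 55). In PD at 12h (1) it was 0 with only the 2 time points compared and 0 to 1 with a pig left out (0 without pig 3, 4 or 5). Without PD pig 3 or 5 no gene at all passed the adjusted p in that comparison. Between the groups at 0h (16) it was 8 with the trend removed and 10 when a fold change of at least 2 was required. With no replicate block, 2 mitosis members instead of 11 at 6h and 2 instead of 14 at 12h were lower in GS by the adjusted p alone. In the fit of all libraries these counts were 2 at 6h and 3 at 12h. The share of all genes lower fell as well, from 14.9% at 6h and 20.8% at 12h. It was 3.69% and 7.43% with no replicate block and 4.14% and 7.7% in the fit of all libraries. On column totals the mean summed level of the S phase members was 364.1 CPM in GS at 0h (298.1 by TMM) and 466.2 CPM in PD at 12h (593 by TMM). The cause of these shifts was not tested. The removal of the trend, of PD pig 2 from the ratio of the sums and of the libraries of PD pig 2 at 12h and PD pig 4 at 0h were chosen after seeing the data. Counts of 3 or fewer, as for FOXM1 in PD pig 4 at 0h, limit single values.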
